A study of Mus musculus with 24 samples.

Results

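The genes described here encode the nuclear subunits of the mitochondrial respiratory chain and of the ATP synthase. They were taken by gene symbol alone. The names were Sdha to Sdhd and those starting with Uqcr, Cox4 to Cox8 or Atp5. Names with Nduf, then a, b, c, s or v and then a digit, were also taken. Without pseudogene symbols holding -ps, this gave 84 rows of the 16617 genes in the deposited table. By complex these were 37 genes of complex I, 4 of complex II, 8 of complex III, 16 of complex IV and 17 of complex V, with Ndufa4 and Ndufa4l2, which associate with complex IV, kept apart. Mouse embryonic stem cells were profiled by sequencing of RNA 3' ends in 8 groups of 3 samples each, made of 4 lines in 2 states. The lines were WT, MLL3KO_MLL4fl (the floxed line, which lacks MLL3 and carries a floxed MLL4), MLL3KO_MLL4KO (the knockout line, which lacks both) and MLL3CD_MLL4CD, called catalytic-dead here. Both proteins are histone methyltransferases that work at enhancers. Naive cells were kept with LIF and 2i, and formative cells were taken 63 h after both were withdrawn. WT and catalytic-dead cells are labelled R1, no cell line is labelled for the other lines, and each genotype is a line of its own, so genotype and other differences between lines cannot be told apart. The table's columns name the floxed line only as CKO, read as that line because no other column names it, and every floxed value rests on this reading.

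Complex I takes electrons from NADH and complex II takes them from succinate. Complex III passes them to cytochrome c, complex IV passes them on to oxygen, and the proton gradient built on the way drives complex V to make ATP. Naive pluripotent cells are known for using both respiration and glycolysis, and cells that leave that state are known for relying more on glycolysis. Several subunits exist as a common form and a second form found mainly in muscle, testis or lung.

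The table holds group averages of log2 CPM (a gene's count scaled to library size), and whole counts of 23 libraries of 4808564 to 15425959 counts were recovered from them. Naive WT is an average of 2 libraries, and the formative knockout average held a further library that also entered the formative catalytic-dead average and was taken out. Across 10854 genes, its values relative to each gene's mean correlated by 0.494 to 0.634 with the other formative catalytic-dead libraries and by 0.033 to 0.087 with the formative knockout libraries. For most of the 84 genes the count of that library was not recovered. The formative catalytic-dead average was then used in its place, so their formative knockout values are estimates. Library values exist in all 8 groups for 12 of the 84 genes and in naive WT alone for 54, since an abundant gene has too many counts that give the same average. Abundant genes are therefore given as group values with no error and no test. All 5 naive markers were lower and all 4 formative markers higher in the formative state of every line. Pou5f1, a defining pluripotency gene, stood at only 7.68 CPM on average, while Nanog stood at 330.0 CPM.

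The 5 genes with the lowest WT difference between states among the abundant members (at least 32 CPM) whose promoters could be shown have these sequences, printed from 250 bases before to 50 after the RefSeq start (GRCm38.p6). They are Cox7a1 (chr7:30183921-30184220, plus strand), Cox8a (chr19:7217567-7217866, minus strand), Cox6b1 (chr7:30626065-30626364, minus strand), Ndufb5 (chr3:32736813-32737112, plus strand) and Atp5h (chr11:115419870-115420169, minus strand). Capitals mark CCGGAAG, a core of ETS factor motifs, on either strand. GCATGCGC, from the NRF1 motif, and AAGATGGC, from the YY1 motif, were searched on both strands too and are in none of the 5.
Cox7a1: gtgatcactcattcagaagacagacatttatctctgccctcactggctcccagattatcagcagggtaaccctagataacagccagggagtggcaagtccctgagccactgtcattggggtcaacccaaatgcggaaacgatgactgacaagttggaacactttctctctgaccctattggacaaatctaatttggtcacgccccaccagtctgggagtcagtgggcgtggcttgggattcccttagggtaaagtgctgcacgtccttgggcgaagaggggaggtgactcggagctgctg
Cox8a: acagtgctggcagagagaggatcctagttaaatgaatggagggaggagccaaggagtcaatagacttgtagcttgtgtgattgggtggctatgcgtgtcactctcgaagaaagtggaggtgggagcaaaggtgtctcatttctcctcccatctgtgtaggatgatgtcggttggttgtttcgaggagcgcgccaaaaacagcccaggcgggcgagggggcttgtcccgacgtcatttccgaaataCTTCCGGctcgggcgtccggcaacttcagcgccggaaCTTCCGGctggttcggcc
Cox6b1: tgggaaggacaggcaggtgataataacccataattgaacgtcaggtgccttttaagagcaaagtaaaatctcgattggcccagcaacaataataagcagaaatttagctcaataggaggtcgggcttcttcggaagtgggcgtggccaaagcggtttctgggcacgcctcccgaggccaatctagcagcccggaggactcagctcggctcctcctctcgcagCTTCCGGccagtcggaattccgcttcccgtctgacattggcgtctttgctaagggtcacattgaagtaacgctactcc
Ndufb5: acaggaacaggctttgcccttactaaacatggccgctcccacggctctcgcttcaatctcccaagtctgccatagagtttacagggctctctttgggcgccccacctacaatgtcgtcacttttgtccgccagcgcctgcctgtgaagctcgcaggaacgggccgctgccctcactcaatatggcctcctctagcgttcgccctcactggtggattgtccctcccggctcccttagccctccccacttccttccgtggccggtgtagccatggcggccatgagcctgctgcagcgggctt
Atp5h: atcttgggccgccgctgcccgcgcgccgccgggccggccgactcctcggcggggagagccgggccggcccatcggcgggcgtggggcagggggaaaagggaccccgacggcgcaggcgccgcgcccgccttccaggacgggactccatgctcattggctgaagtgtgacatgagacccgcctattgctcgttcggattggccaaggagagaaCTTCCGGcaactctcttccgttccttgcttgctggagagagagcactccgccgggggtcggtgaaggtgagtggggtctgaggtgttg
Cox7a1 and Ndufb5 hold no match, Cox8a holds CCGGAAG at 2 places, and Cox6b1 and Atp5h hold it once each. Among the 66 member symbols with a RefSeq promoter, 25.8% held CCGGAAG against 12.9% of 17492 protein-coding genes. GCATGCGC was in 15.2% against 3.94%, and AAGATGGC in 13.6% against 3.57%. These 3 were among 7 strings tried. ACTTCCGG, a longer ETS string, was in 7.58% against 5.69%. The full NRF1 motif was in 7.58% against 1.47%, the same with its middle base left free in 25.8% against 7.17%, and a longer YY1 motif in 6.06% against 1.06%. The strings overlap within each factor, and a match is a description of letters.

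The 3' tag method gives about 1 tag per transcript, so levels of different genes need no correction for length. Levels of genes whose transcript end is mostly found in other genes too are uncertain, as described below. In naive WT cells the levels ran from Atp5g3, which encodes the rotor ring subunit c of ATP synthase, at 2290.0 CPM, down to the lung-type subunit Cox4i2 at 0.127 CPM. Uqcrh, the hinge protein of complex III, stood highest in its complex at 1630.0 CPM and Cox6c highest in complex IV at 1620.0 CPM. Ndufa2 led complex I at 816.0 CPM and Sdhb, the iron-sulfur subunit, led complex II at 371.0 CPM. Atp5b and Atp5a1, the catalytic core of ATP synthase, varied least, with a range over the 8 groups of 0.27 and 0.30 log2. The lowest in the other complexes were Ndufs5 (0.159 CPM), Sdhd (14.5), Uqcrc2 (14.4) and Atp5l (8.17). Of these, Ndufs5, Uqcrc2 and Atp5l have such a shared end. The 12 widest ranges belonged to low or moderate genes: Cox8c (3.30 log2), Ndufs5 (3.05), the second Ndufa13 row described below (2.90), Cox5a (2.60), Ndufa4l2 (2.31), Cox7b2 (2.10), Sdhd (2.09), Cox4i2 (1.86), Cox7c (1.72), Ndufb6 (1.64), Cox7a1 (1.57) and Ndufa11b (1.54). Among the 3 genes for subunit c, which yield the same mature protein, naive WT cells had 31.5 CPM of Atp5g1 and 9.02 of Atp5g2 beside Atp5g3. Atp5g2 is another gene with a mostly shared end.

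Of the 84 genes, 70 had a mean of at least 32 CPM. Of the 14 below that level, 4 were second, tissue-restricted forms. Cox4i2 averaged 0.345 CPM against 601.0 for Cox4i1, Cox7b2 averaged 1.01 against 512.0 for Cox7b, and Cox8c averaged 1.39 against 500.0 for Cox8a. Ndufa4l2 averaged 0.886 against 174.0 for Ndufa4, and among forms above that level Cox7a1, the muscle form, averaged 32.5 against 983.0 for Cox7a2 and 122.0 for Cox7a2l. Cox6b2, a testis form, reached 52.3 CPM against 641.0 for Cox6b1, and Cox6a1 stood at 538.0 CPM. A further 6 of the 14 had a transcript end that is mostly found in other genes too. In 8 genes in all, over 50% of the 50-base windows in the last 300 bases also occur in another gene's transcript, among them Uqcrc2 (all windows), Cox7c (99.2%), Atp5g2 (98.4%) and Cox5a (69.3%). These 8 had a median of 10.6 CPM, the 19 with up to 50% of the windows shared had 370.0 CPM and the 56 with none had 216.0 CPM. The treatment of reads that match several genes is not stated in the labels, so values of these 8 genes are uncertain. One of 2 rows with the symbol Ndufa13 (ENSMUSG00000048967, 2.29 CPM) is named Yjefn3 in GENCODE vM21, and Ndufa11b is annotated there as a processed pseudogene.

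**Figure D1:**
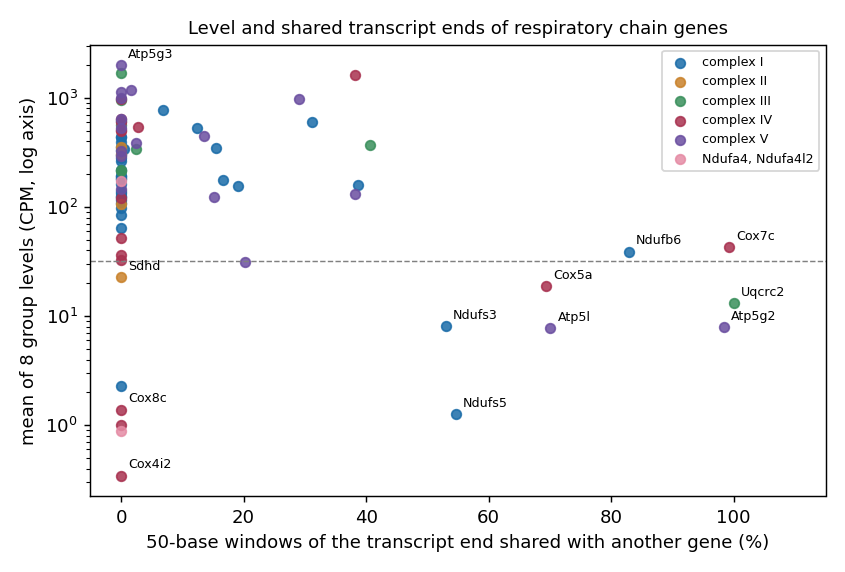
Mean level over 8 groups (CPM, log axis) against the percent of 50-base windows of the transcript end that another gene shares, 1 point per protein-coding member, coloured by complex, with a dashed line at 32 CPM. The 8 genes with over 50% of windows shared lie at 43.0 CPM or below.

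From the naive to the formative state of WT cells, most of these genes had a lower group value. Of the 70 genes of at least 32 CPM, 57 were lower and 13 higher, with a median of -0.23 log2, where the 4982 genes of that level had a median of 0.07. A group value lower by at least 0.5 log2 was seen for 18 of the 70 (25.7%) and one higher by that much for 0, against 15.4% and 18.7% of all genes of that level. The lower values spread over complexes I, III, IV and V, with medians of -0.20, -0.31, -0.23 and -0.34. Cox8a, a small complex IV subunit, went from 859.0 to 395.0 CPM, Cox6b1 from 1080.0 to 501.0 and the complex I subunit Ndufb5 from 689.0 to 337.0. Uqcr10, a small complex III subunit, went from 1390.0 to 800.0 CPM, and Atp5h, in the stalk of ATP synthase, from 178.0 to 102.0. The catalytic subunit Atp5b had 993.0 and 962.0 CPM, and Cox4i1, a nuclear-encoded complex IV subunit, had 594.0 and 596.0. The highest difference was that of Cox4i2 (0.79), a gene of 0.127 and 0.369 CPM. The median depends on the naive WT libraries: over 74 genes with values in both it was -0.31 without library a and -0.17 without library b.

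Cox7a1 was the one member that passed the test in WT cells. The naive libraries held 58.8 and 54.2 CPM and the formative ones 19.4, 30.6 and 19.5 CPM, so the groups did not overlap. It fell by 1.31 log2 (SE 0.22, limma adjusted p = 2.982e-05). That is 1 of 19 members tested, where 12.5% of all tested genes fell and 20.0% rose. Summed over 4 measured muscle markers, the level was 1.97 CPM in naive and 7.01 CPM in formative WT cells, with Ckm at 0.0 in the naive ones. The largest part of both sums was Actc1 (0.897 and 5.11 CPM). Ckm and Myh6 were also higher in the formative state, while Tnnt2 was lower (0.764 and 0.442 CPM). The part of these markers in the result was not tested.

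In the floxed line the members' median was 0.07 against 0.00 for all genes of at least 32 CPM, with 41 higher and 29 lower of 70. With size factors in place of library totals the median over all 84 members was -0.04, so its sign is not settled. A value lower by at least 0.5 log2 was seen for 4 genes and one higher for 4, against 17.3% and 18.1% of genes of that level. Cox8a had the lowest difference, from 596.0 to 344.0 CPM, and the second Ndufa13 row the highest (1.03). Cox7a1 stood at 52.2, 40.5 and 38.7 CPM in naive and at 21.2, 31.0 and 35.6 CPM in formative floxed cells, without overlap. It fell by 0.60 log2 (SE 0.19, limma adjusted p = 0.01717), the 1 call among 14 members tested, where 11.6% of genes fell and 22.6% rose. The call was lost without naive floxed library a (adjusted p = 0.101) or formative floxed library a (adjusted p = 0.163).

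In the knockout line 57 of 70 genes again had a lower value in the formative state, with a median of -0.31 against 0.04 for all genes of that level. Most of these formative knockout values are estimates, with the formative catalytic-dead average used in place of the library taken out. A value lower by at least 0.5 log2 was seen for 14 (20.0%) and one higher for 6 (8.57%), against 11.5% and 18.6%. Complex I had a median of -0.34, with Ndufb4 the lowest (97.7 to 43.7 CPM). Against that trend, Atp5md, a small subunit of ATP synthase, went from 101.0 to 244.0 CPM and Ndufa1 from 83.9 to 203.0 CPM.

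Of 14 members tested in the knockout line, 3 rose and 0 fell, where 21.8% of all tested genes rose and 5.68% fell. Cox8c, a testis form, stood at 0.13, 0.0887 and 0.371 CPM in naive and 1.9, 1.57 and 1.46 CPM in formative knockout cells. It rose by 2.26 log2 (SE 0.56, limma adjusted p = 0.002659), from 1 to 3 counts per library in the naive state. Cox7b2, also a testis form, stood at 0.519, 0.177 and 0.495 CPM and then at 1.3, 3.28 and 2.7 CPM, and rose by 2.10 (limma adjusted p = 0.01178). This call was lost without naive knockout library b (adjusted p = 0.0691) or formative knockout library b (0.0558). Sdhd, a membrane anchor of complex II, stood at 11.8, 18.3 and 14.4 CPM and then at 26.6, 59.0 and 36.2 CPM. It rose by 1.39 (limma adjusted p = 0.01188), and this was lost without naive knockout library a (0.061) or formative knockout library b (0.0875). In none of the 3 did the groups overlap.

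In the catalytic-dead line the median was -0.06, as for all genes of at least 32 CPM, with 33 higher and 37 lower. Over the 50 of them with no shared window it was -0.05, and over all 56 protein-coding members with no shared window, 6 of them under 32 CPM, it was 0.045. Lower by at least 0.5 log2 were 9 and higher 2, against 17.7% and 12.5% of genes of that level. By complex, the medians of members of at least 32 CPM were 0.02 (I), -0.21 (II), -0.33 (III), -0.10 (IV) and -0.11 (V). Of 17 members tested, 2 rose and 3 fell, where 18.4% and 11.2% of all tested genes did. Cox7a1 stood at 54.2, 43.2 and 40 CPM in naive and 21.8, 32.3 and 24.6 CPM in formative cells, and fell by 0.81 (SE 0.20, limma adjusted p = 0.002733). Cox5a, a nuclear-encoded complex IV subunit whose transcript end is shared, stood at 88.9, 32.9 and 41.5 CPM and then at 6.08, 32.3 and 8.09 CPM. It fell by 2.06 (SE 0.52, limma adjusted p = 0.003398), the groups being separated by 32.9 against 32.3 CPM. Atp5g1, a second gene for subunit c, stood at 34.5, 64.1 and 38.2 CPM and then at 30.4, 17.4 and 28.3 CPM. It fell by 0.83 (limma adjusted p = 0.01209), a call lost without library b of either state (0.124 and 0.095). Cox7b2 stood at 0.447, 0.456 and 0.328 CPM and then at 2.08, 2.27 and 1.45 CPM, and rose by 1.78 (limma adjusted p = 0.02524). The second Ndufa13 row stood at 0.447, 0.609 and 0.492 CPM and then at 1.5, 1.7 and 2.75 CPM, and rose by 1.57 (limma adjusted p = 0.03992). Neither overlapped. The Cox7b2 call was lost without any naive library and without formative library a or b, and the Ndufa13 call without any naive library and without formative library b or c.

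**Figure D2:**
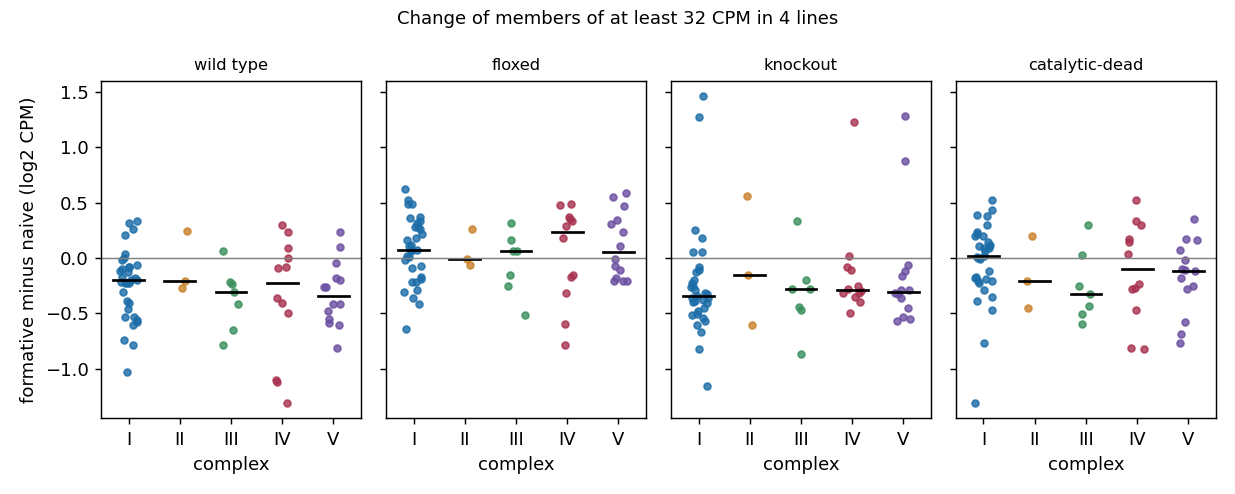
Formative minus naive group value (log2 CPM) of each member of at least 32 CPM, by complex, in each of the 4 lines. Points are genes and black lines are medians, which lie below 0 for all 5 complexes in WT and knockout cells.

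The test of the difference between transitions called 0 members. Knockout minus floxed, 0 of 12 members passed limma's adjusted p, where 9.05% of all tested genes did. Catalytic-dead minus WT, 0 of 17 passed the adjusted p, where 3.59% of genes did. By group value, 56 of 70 genes had a lower transition value in knockout than in floxed cells (median -0.29, all genes of that level 0.06), and 52 of 70 had a higher one in catalytic-dead than in WT cells (median 0.21, all genes -0.13). By at least 0.5 log2, 22 were lower and 5 higher in the first difference (10.9% and 17.8% of all genes of that level), and 2 lower and 13 higher in the second (17.8% and 9.01%). The second median was 0.13 over 74 genes with both naive WT libraries, 0.25 without library a and 0.09 without library b. Over the 50 abundant genes with no shared window it was 0.13. These abundant genes carry no test. For Cox8c the difference was 2.30 (limma adjusted p = 0.07598), for Cox7a1 it was 0.62 (limma adjusted p = 0.2193), and for the second Ndufa13 row, the lowest, it was -1.77 (limma adjusted p = 0.06369). Catalytic-dead minus WT, the extremes were Ndufa4l2 (1.79) and Cox5a (-1.40), neither past the test.

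Summed over all 84 genes, the level was 32315 CPM in naive and 26275 CPM in formative WT cells. It was 29843 and 30122 in floxed, 31756 and 25763 in knockout and 28788 and 27234 in catalytic-dead cells. Complex IV went from 6641 to 4848 CPM in WT cells, and complex II ranged from 692 to 962 CPM over the 8 groups.

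**Figure D3:**
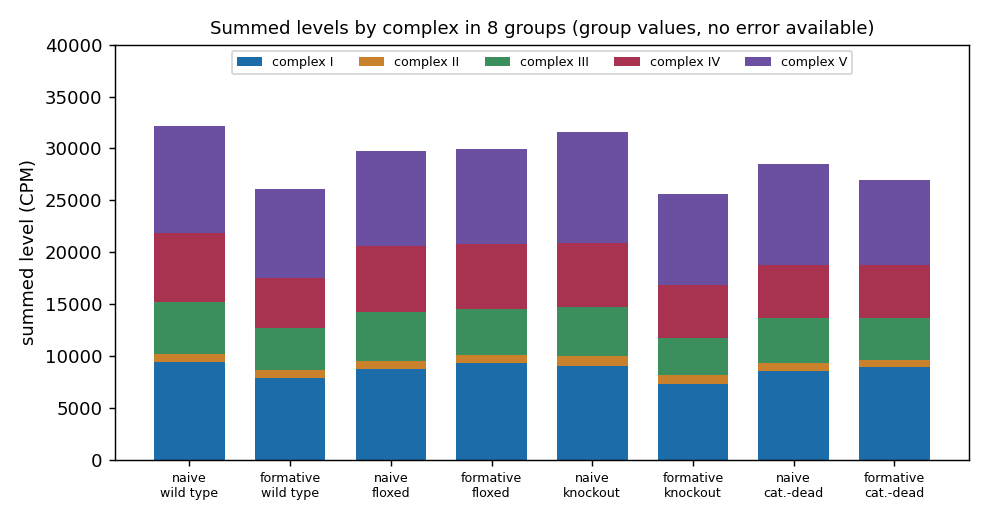
Summed group values (CPM) of the members of complexes I to V, stacked, in each of the 8 groups; no error can be given for a sum of group averages. The WT and knockout bars are lower in the formative state, while the floxed bars are alike.

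Loss of MLL4 on top of MLL3 was examined by setting the knockout beside the floxed line. In the naive state the members' median was 0.13 (all genes of at least 32 CPM 0.04), with 53 of 70 higher and 3 each past 0.5 log2 in either direction (lower 9.57% and higher 8.85% of all genes). In the formative state it was -0.26 (all genes 0.10), with 47 of 70 lower. Past 0.5 log2 were 11 lower and 5 higher, against 8.29% and 15.2% of all genes of that level. The complexes were not alike, with medians of -0.34 (I), 0.26 (II), -0.36 (III), -0.28 (IV) and -0.02 (V). In complex V 7 genes were higher and 7 lower, and in complex II 2 of 3 were higher. Ndufa7, a peripheral complex I subunit, stood at 425.0 CPM in formative knockout and 851.0 CPM in formative floxed cells.

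Of 12 members tested between the naive lines, 1 rose and 2 fell, where 8.5% and 9.66% of all tested genes did. Cox7a1 stood at 20.4, 17.1 and 19.2 CPM in naive knockout against 52.2, 40.5 and 38.7 CPM in naive floxed cells, and fell by 1.19 (SE 0.20, limma adjusted p = 7.333e-05). The summed muscle markers stood at 8.2 CPM in naive knockout and 2.27 CPM in naive floxed cells. Actc1 made up most of the knockout sum (7.58 against 0.785 CPM). Tnnt2 (0.471 against 1.13 CPM) and Myh6 (0.114 against 0.355 CPM) were lower in the knockout, and Ckm was near 0 in both. The part of these markers in the result was not tested. The naive knockout level of Cox7a1 lay beside its formative knockout level of 16.9, 22.6 and 18.3 CPM (difference 0.02, SE 0.23). Ndufa4l2, known as a hypoxia-induced relative of Ndufa4, stood at 0.713, 0.355 and 0.0 CPM against 2.05, 1.54 and 1.36 CPM and fell by 1.96 (limma adjusted p = 0.01844). The call was lost without naive floxed library a (0.0693) or naive knockout library c (0.168). The second Ndufa13 row stood at 5.64, 5.24 and 4.58 CPM against 1.21, 2.11 and 0.453 CPM and rose by 2.05 (limma adjusted p = 0.0009287).

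Between the formative lines 1 of 16 members rose and 1 fell, where 11% and 6.72% of genes did. Ndufa4l2 stood at 0.1, 0.143 and 0.832 CPM in knockout against 2.14, 2.37 and 0.746 CPM in floxed cells, with overlap, and fell by 1.90 (limma adjusted p = 0.01344). This was lost without library a or b of either line. Cox5a stood at 37.1, 56.4 and 16.4 CPM against 3.74, 24.0 and 10.4 CPM, with overlap, and rose by 1.71 (limma adjusted p = 0.02851). This was lost without floxed library a or c or knockout library a or b, and with the formative knockout average as deposited (0.209).

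The catalytic-dead line was compared with WT in each state. In naive cells the median was -0.08 for the 70 genes and 0.09 for all genes of that level, and over 74 genes with both naive WT libraries it was -0.10 without library a and 0.08 without b. Past 0.5 log2 were 7 lower and 7 higher, against 8.55% and 17.5% of all genes of that level. Of 18 members tested 2 rose and 1 fell, where 6.63% and 4.82% of genes did. Ndufa4l2 stood at 0.224, 0.152 and 0.164 CPM against 1.33 and 2.15 CPM in WT and fell by 2.31 (SE 0.55, limma adjusted p = 0.00609), which was lost without naive WT library b (0.069). Cox5a stood at 88.9, 32.9 and 41.5 CPM against 16.3 and 9.96 CPM in WT, without overlap, and rose by 1.94 (limma adjusted p = 0.03357). Cox7c, another complex IV subunit with a shared end, stood at 65.3, 37.7 and 48.9 CPM against 27.9 and 19.9 CPM and rose by 1.06 (limma adjusted p = 0.03763). Both rises were lost without either naive WT library and without catalytic-dead library a or c.

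In formative cells the median was 0.09 (all genes -0.02), with 0 lower and 9 higher by 0.5 log2 (8.45% and 8.85% of all genes of that level). There 1 of 17 members rose and 1 fell, where 4.96% and 3.57% of genes did. Sdhd stood at 31.3, 42.8 and 23.4 CPM against 10.2, 5.89 and 11.4 CPM in WT and rose by 1.81 (SE 0.45, limma adjusted p = 0.01019). It was lost without formative WT library b (0.0629). Atp5l, subunit g of ATP synthase, with 70.1% of end windows shared and so an uncertain value, stood at 5.73, 5.68 and 5.78 CPM against 9.15, 10.0 and 10.2 CPM and fell by 0.75 (limma adjusted p = 0.0253). That call was lost when any 1 of the 6 libraries was left out (adjusted p up to 0.088).

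The floxed line differed from WT by the loss of MLL3 and by line. In naive cells the median was -0.13 (all genes 0.04), and in formative cells it was 0.25 (all genes -0.02), with 58 of 70 genes higher. By 0.5 log2, 6 were lower and 2 higher in naive cells (5.28% and 6.62% of all genes of that level) and 0 lower and 8 higher in formative cells (8.57% and 8.03%). Over 74 genes with both naive WT libraries the naive median was -0.11, and it was -0.17 without library a and -0.03 without library b. Ndufs5, a complex I subunit with 54.6% of end windows shared, stood at 6.52, 1.15 and 1.66 CPM in naive floxed against 0.211 and 0.113 CPM in naive WT cells. It rose by 2.82 (limma adjusted p = 0.01963), 1 of 15 members, where 2.06% of genes rose and 3.24% fell. The call was lost without either naive WT library or naive floxed library a. Atp5md had the lowest difference (-0.74, 87.6 against 147.0 CPM). In formative cells Ndufs5 stood at 1.76, 3.39 and 2.24 CPM against 0.216, 0.491 and 0.399 CPM and rose by 2.20 (limma adjusted p = 0.03846). Sdhd stood at 12.7, 66.0 and 25.7 CPM against 10.2, 5.89 and 11.4 CPM and rose by 1.63 (limma adjusted p = 0.01802). These were the 2 of 17 members past the threshold, where 4.28% of genes rose and 5.38% fell. Cox8c had the lowest difference (-0.96). The Ndufs5 call was lost without any WT library or floxed library b or c, and the Sdhd call without WT library a or b or floxed library b.

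**Figure D4:**
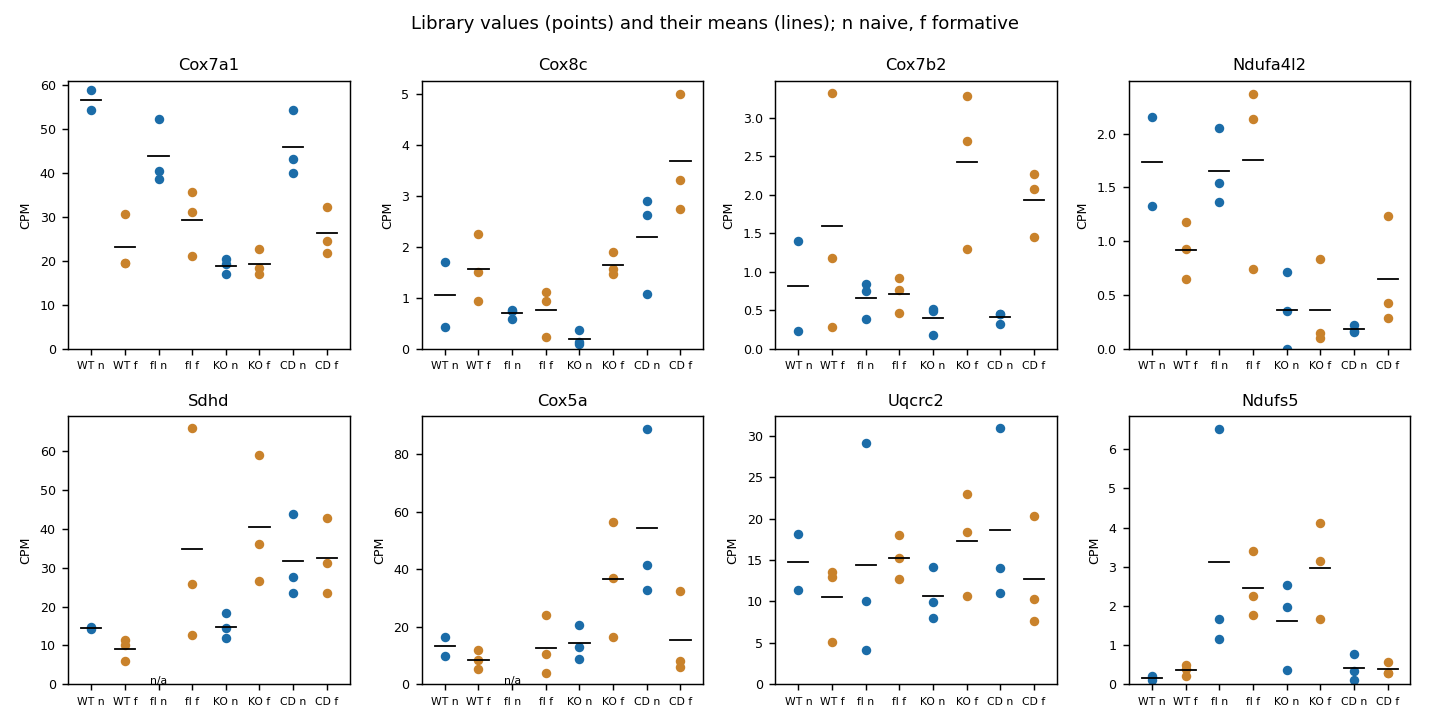
Library values (CPM, linear axes) of 8 members in the 8 groups, naive in blue and formative in orange (WT wild type, fl floxed, KO knockout, CD catalytic-dead; n naive, f formative); short lines are means and n/a marks a group without library values. Cox7a1 is at 17.1 to 20.4 CPM in naive knockout cells and at 38.7 CPM or above in the other naive groups.

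All 4 complex II genes were measured. Sdha, the flavoprotein, ranged from 241.0 to 393.0 CPM over the groups, Sdhb from 281.0 to 454.0 and Sdhc, an anchor subunit, from 81.5 to 147.0. Sdhd had the widest range, 2.09 log2, and its libraries spread within groups, as in formative floxed cells (log2 SD 1.18).

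Genes around the chain were described by the lists of assembly factors, electron carriers, TCA cycle and mitochondrial biogenesis. In the WT transition all 16617 genes had a median of 0.14, and 20.0% of tested genes rose and 12.5% fell. Of 47 listed assembly factors 43 were measured, with a WT transition median of -0.10, and 1 of 26 tested rose and 1 fell. The 16 electron carrier genes had a median of -0.13 (0 of 13 tested passed), the 16 TCA cycle genes -0.07 (0 of 3), and 14 of 15 mitochondrial transcription and biogenesis genes 0.10 (0 rose and 1 fell of 8). In floxed cells the medians of these lists, in the same order, were 0.04, -0.09, -0.11 and 0.06 (all genes 0.13). In knockout cells they were -0.21, -0.20, -0.02 and 0.17 (all genes 0.19), and in catalytic-dead cells -0.07, -0.17, -0.22 and -0.33 (all genes 0.06). The difference between these lists and the subunit genes was not tested. Lrpprc, a mitochondrial RNA-binding protein in the biogenesis list, was lower in the formative state. It went from 619.0 to 292.0 CPM in WT and from 440.0 to 97.5 CPM in floxed cells, as group values with no test. Tfam of the same list went the other way, from 123.0 to 161.0 CPM in WT cells. Of the 14 genes, 1 was higher and 2 lower by at least 0.5 log2 in WT cells, against 32.1% and 19.8% of all genes. Summed fibroblast markers (4 of 7 measured) stood at 1.87 to 3.26 CPM in naive and 8.92 to 25.6 CPM in formative groups. Not every marker followed the sum. Thy1 went from 0.581 to 0.131 CPM in knockout cells, and Col1a1 from 2.05 to 1.05 CPM in catalytic-dead cells. Summed muscle markers (4 of 8 measured) stood at 1.97 to 8.2 and 5.74 to 43.3 CPM, the highest in formative knockout cells with Actc1 at 42.3 CPM. Against the sums, Tnnt2 was lower in the formative state of WT, floxed and catalytic-dead cells. In knockout cells it was about level (0.471 and 0.45 CPM). The part of these markers in the differences between states was not tested.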

How the data were processed

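RNA 3' ends were sequenced from 24 samples (QuantSeq 3' FWD, 200 ng of RNA, 50 bp reads, per the labels' protocols). Per the submitters' processing notes, the tools were FastQC 0.11.8, MultiQC, cutadapt 2.5, STAR, featureCounts of Subread 1.6.4 and DESeq2 1.34.0, on mm10. The authors deposited log2 CPM averaged per group; a prior count of 2, in proportion to each library's size, was found from the values. Cultures were independent, per the design text.

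Whole counts were recovered from the averages (narrowest search window 1.0 log2, at most 0.3 solutions expected by chance, both taken over from an earlier account). Wider windows were tried first. Library values found only in the narrowest window lie within 1.0 log2 of the group value by construction. The library found in 2 averages was removed from the formative knockout mean, using the formative catalytic-dead mean where its own count was not recovered. limma 3.58.1 in R 4.3.3 was fitted to the 8 groups in 1 model, with weights from a lowess trend (span 0.3), for genes with 10 counts at the median library size in at least 3 libraries (16539 of 16617, values not recovered counting as passing). Benjamini-Hochberg adjustment ran over all genes tested, and rose or fell means an adjusted p under 0.05. The procedure was tested on simulated data. Recovery is most complete for low genes, so the members tested are mostly the low ones.

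Named genes were the highest and lowest of each complex, the 12 widest ranges, the extremes of each comparison, all called members, isoform pairs and complex II. Members and lists were chosen with earlier results of these data known, and the 32 CPM limit, the 0.5 log2 step, the shared-window measure and the marked motifs were chosen after seeing the data. Transcript ends came from GENCODE vM21 and promoters from RefSeq; one chromosome's promoters are not printed here. Alternatives were size factors, no filter, a prior count of 0.5, no weights, only the groups compared, each library left out and the formative knockout average as deposited.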

Additional observations from a re-analysis of the deposited data

How the results depend on the processing

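Of 23 calls of single members, 6 held under every alternative run. Among 269 pairs of a call and an alternative, which share fits, no direction reversed and 72 lost the call. The 6 were Cox7a1 in the WT and catalytic-dead transitions and in naive knockout against floxed cells, Cox5a in the catalytic-dead transition, Cox8c in the knockout transition and the second Ndufa13 row in naive knockout against floxed cells. Leaving out a library ended 17 calls. Counts of called members moved by over 1.5 times as follows. With size factors they were 2 in the WT transition, 2 in the floxed transition and 1 in the knockout minus floxed difference, which was also 1 without weights. With only the groups compared they were 5 in the knockout transition, 1 in formative knockout against floxed cells, 1 in formative catalytic-dead against WT cells, 0 in naive floxed against WT cells and 1 in formative floxed against WT cells. With a prior count of 0.5 they were 3 in the catalytic-dead transition, 1 in formative knockout against floxed, 1 in naive catalytic-dead against WT, 0 in naive floxed against WT and 1 in formative floxed against WT cells. With the formative knockout average as deposited they were 1 in formative knockout against floxed, 1 in naive catalytic-dead against WT, 0 in naive floxed against WT and 1 in formative floxed against WT cells; the last 3 do not use that average but share the estimate of spread. With 1 library left out the counts ran from 1 to 2 in the WT, 0 to 1 in the floxed, 1 to 4 in the knockout and 2 to 4 in the catalytic-dead transition. They ran from 2 to 3 and 0 to 2 for knockout against floxed (naive, formative), 0 to 3 and 0 to 1 for catalytic-dead against WT, 0 to 1 and 0 to 2 for floxed against WT, 0 to 1 for the knockout minus floxed difference and 0 to 0 for the catalytic-dead minus WT difference. The cause was not tested. Where 1 naive WT library was left out, the lone one was assumed to vary like the other groups. Size factors shifted group values by -0.108 (naive WT) to 0.105 (formative knockout) log2; the WT transition median was then -0.36, the knockout one -0.46, the catalytic-dead one -0.10 (from -0.06), naive catalytic-dead against WT -0.16 (from -0.04) and formative catalytic-dead against WT 0.05 (from 0.09), over all members. No paired analysis was possible because the deposited averages carry no replicate numbers. Genes of high counts have no library values, so their differences have no error, and genes of a few counts per library are limited by depth.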
